A study of Mus musculus with 4 samples.

Results

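Interferon response and nucleic acid sensing genes were read in RNA-seq counts from E12.5 mouse embryos, in cells labelled primordial germ cells (PGCs), from which eggs or sperm later form. The genes were chosen by name, 34 in all, and each was matched by symbol to 1 of the 53715 genes of the count table (Mb21d1 under its current symbol, Cgas). They comprise 5 sensors, 10 signalling components, 17 induced antiviral genes and 2 genes that limit sensing. Libraries labelled Rif1_KO (C57BL/6, Rif1 knockout, n = 2) were compared with libraries labelled WT (C57BL/6, wild type, n = 2). Rif1 encodes a chromatin protein of replication timing and DNA break repair. All cells came from E12.5 embryos, were taken by magnetic sorting, and 1000 cells were used per library, made by a modified Smart-seq2 protocol that copies whole transcripts from little RNA. How the Rif1 allele was made, which part of the gene it lacks and whether embryos were pooled are not given in the sources used here. Nothing says that the libraries of a label came from separate embryos, so the p-values rest on a spread among libraries that may be technical.

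Cells detect viral or misplaced nucleic acid through receptors for RNA (RIG-I, MDA5, TLR3) and DNA (cGAS). Their adaptors MAVS and STING activate IRF3 and IRF7, which switch on interferon genes. Secreted type I interferon binds IFNAR1 with IFNAR2 and drives a complex that holds STAT2 and IRF9 to a promoter element, the ISRE, of antiviral genes such as the Ifit, Oas and Mx families. Transcripts of endogenous retroviruses can feed the same sensors, and the Ifitm genes, which encode membrane proteins that block virus entry, are also known from early mouse germ cells.

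The promoters below are shown because their genes mark the range of these data: the 3 genes with the smallest p (Stat2, Bst2 and Ifit3), 1 that was close to undetected (Isg15) and 1 that was abundant (Ifitm2). Each is the stretch of 250 bases before the RefSeq transcription start on GRCm38.p6 (mm10), 5′ to 3′ on the gene's strand, and capitals mark GAAA, any 2 bases and GAAA again, or the same on the other strand (TTTC, any 2 bases, TTTC), the spaced repeat at the core of an ISRE. Matches may overlap.
Stat2: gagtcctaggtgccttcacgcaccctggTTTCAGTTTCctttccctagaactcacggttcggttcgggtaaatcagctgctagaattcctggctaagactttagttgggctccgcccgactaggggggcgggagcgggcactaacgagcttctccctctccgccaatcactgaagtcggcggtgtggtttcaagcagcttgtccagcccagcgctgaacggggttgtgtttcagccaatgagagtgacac
Bst2: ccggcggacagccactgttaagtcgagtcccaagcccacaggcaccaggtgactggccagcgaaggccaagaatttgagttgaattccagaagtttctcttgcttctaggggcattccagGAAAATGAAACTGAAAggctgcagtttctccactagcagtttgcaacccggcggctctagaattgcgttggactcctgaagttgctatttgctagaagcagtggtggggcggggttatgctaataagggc
Ifit3: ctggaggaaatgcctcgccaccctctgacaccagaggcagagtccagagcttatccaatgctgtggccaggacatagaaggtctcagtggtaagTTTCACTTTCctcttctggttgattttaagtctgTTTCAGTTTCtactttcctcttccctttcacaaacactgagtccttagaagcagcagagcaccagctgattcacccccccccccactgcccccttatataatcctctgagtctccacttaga
Isg15: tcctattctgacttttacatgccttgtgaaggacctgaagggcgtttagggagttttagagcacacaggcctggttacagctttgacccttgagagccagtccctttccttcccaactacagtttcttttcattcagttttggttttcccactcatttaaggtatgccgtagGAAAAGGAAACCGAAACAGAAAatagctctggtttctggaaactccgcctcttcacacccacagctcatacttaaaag
Ifitm2: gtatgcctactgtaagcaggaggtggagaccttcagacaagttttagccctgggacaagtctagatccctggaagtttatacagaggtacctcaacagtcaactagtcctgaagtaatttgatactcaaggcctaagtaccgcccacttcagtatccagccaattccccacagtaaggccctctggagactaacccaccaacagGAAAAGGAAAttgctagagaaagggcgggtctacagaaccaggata
They lie at chr10:128270248-128270497 (plus strand) for Stat2, chr8:71537473-71537722 (minus strand) for Bst2, chr19:34583279-34583528 (plus strand) for Ifit3, chr4:156200819-156201068 (minus strand) for Isg15 and chr7:140955962-140956211 (minus strand) for Ifitm2. RefSeq held a promoter for 28 of the 34 genes. Of the induced genes 7 of 13 held the repeat (Ifit1, Ifit3, Isg15, Oas1a, Rsad2, Bst2 and Ifitm2), of the signalling genes 1 of 9 (Stat2), of the sensors 0 of 4 and of the limiters 0 of 2, beside 3.46% of all 27025 genes with a promoter entry and 2.98% of all 32851 promoters of that length. Such a match is a description of letters in this window. Isg15 held 3 overlapping copies, starting 78, 72 and 66 bases before the start, and had 2 reads in all 4 libraries together, while Ifitm1 held none and was the most abundant of the 34 genes.

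Sequencing gave 12071903 and 14421298 counts on genes in the libraries labelled Rif1_KO (replicate 1 before replicate 2 throughout) and 12768932 and 11724630 counts in those labelled WT. Rif1 itself had 86.2 and 63.9 CPM (counts per 1000000 of the TMM-scaled total) under the label Rif1_KO, against 43.7 and 4.73 CPM under the label WT. Both values under the knockout label lay above both WT values. Counts over the whole gene neither bear out that label nor refute it, as the part the allele lacks is not given. Directions below thus follow the labels alone. The difference in Rif1 did not pass the test (log2 fold change 1.63, SE 1.01, edgeR adjusted p = 0.717), and the WT libraries were 9.23-fold apart. The log2 fold change of Rif1 was 0.79 to 4.04 with 1 library left out. Marker lists of other cells also moved with the labels, as the plot of cell type markers shows. The 10 erythroid markers summed to 9881 and 4266 CPM, against 138672 and 112994 CPM under the label WT, and all 10 lay below the WT values in both libraries. All 9 stromal markers lay above them, with sums of 1621 and 1323 CPM against 540.0 and 397.8 CPM. The 10 markers of gonadal supporting cells summed to 914.9 and 894.6 CPM, against 920.9 and 807.2 CPM. Epithelial markers, 7 in all, summed to 40.9 and 110.5 CPM, against 146.4 and 226.6 CPM. Of these 7, 3 lay below the WT values in both libraries and 0 above. The 14 germ cell markers summed to 39.4 and 44.3 CPM, against 58.1 and 474.6 CPM, so the sum was low in 3 of the 4 libraries. Dazl had 2.03 and 4.08 CPM against 13.0 and 195.7 CPM, and Prdm14 0.452 and 0.106 CPM against 19.9 and 18.4 CPM. Prdm1 and Nanog went the other way. Prdm1 had 0.904 and 17.7 CPM against 0.276 and 0.322 CPM, and Nanog 0.678 and 2.65 CPM against 0.461 and 0.322 CPM. Of the 14 germ cell markers, 2 lay above and 4 below the WT values in both libraries. Of the 10 germ cell markers tested, edgeR called 0, 1 was higher and 4 were lower with p unadjusted at 0.05, and DESeq2 called 3 lower. In bulk RNA of this kind, fewer cells of a type and less RNA per cell cannot be told apart.

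**Figure D1:**
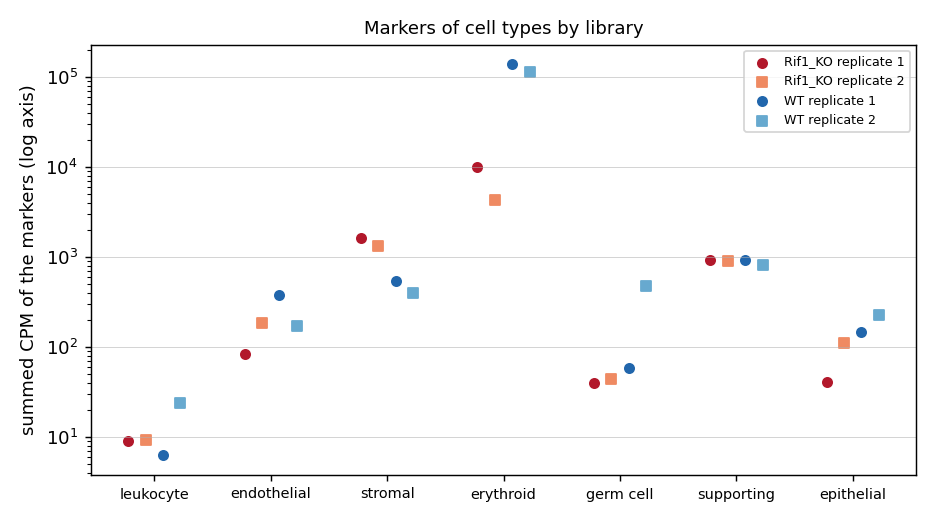
Summed CPM of fixed marker lists (14 leukocyte, 10 endothelial, 9 stromal, 10 erythroid, 14 germ cell, 10 supporting and 7 epithelial genes) on a log axis, with 1 point per library. Erythroid sums separate the labels most, at 9881 and 4266 CPM under the label Rif1_KO and 138672 and 112994 CPM under the label WT, while leukocyte sums stay between 6.26 and 24.0 CPM.

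Markers of leukocytes, which express many of these genes, had low sums, but single markers were uneven between libraries. The 14 of them summed to 9.12 and 9.22 CPM, against 6.26 and 24.0 CPM under the label WT, and 3 of 14 were at 0 in Rif1_KO replicate 2, 2 in WT replicate 1 and 4 in WT replicate 2. Of the 14, 1 lay above the WT values in both libraries (Tyrobp, at 1 and 2 counts against 0 and 0) and 4 lay below them. Endothelial markers summed to 82.8 and 185.2 CPM, against 375.1 and 169.6 CPM, with 1 of 10 above and 3 of 10 below the WT values in both libraries.

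Many of the 34 genes were near the limit of detection in these libraries. At least 10 counts were reached by 26 and 26 of them in the libraries labelled Rif1_KO, and by 20 and 17 in those labelled WT. Over all genes 15226 and 16211 genes reached it under the label Rif1_KO, against 13314 and 13566 under the label WT, so the same order held there. In all 4 libraries 13 genes reached it, and 3 (Ifit1, Isg15 and Mx1) reached it in none. The interferons themselves were close to undetected: Ifnb1, for interferon beta, had 0 and 0 counts against 1 and 1, and Ifna4 had 0 and 0 against 0 and 1. Over the 7 interferon genes looked up (these, Ifng, Ifne, Ifnk, Ifnl2 and Ifnl3), the highest count in any library was 4. A count of 3, the limit that a count of 0 allows, corresponds to 0.226 and 0.159 CPM in the libraries labelled Rif1_KO and to 0.276 and 0.322 CPM in those labelled WT, for counting error only.

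**Figure D2:**
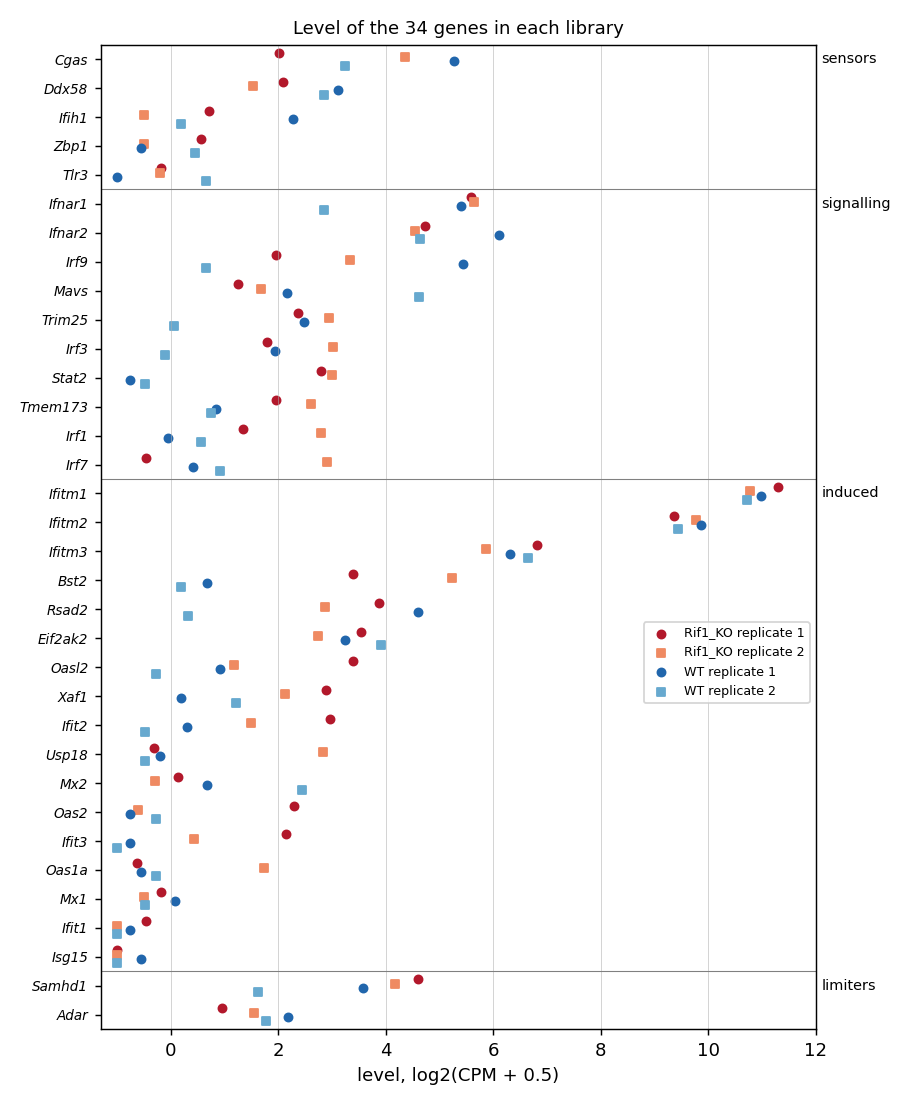
Level of each of the 34 genes, log2(CPM + 0.5), with 1 point per library, grouped by role and ordered by mean level. The 3 Ifitm genes lie apart at the top of the induced group, Stat2 and Bst2 have both Rif1_KO points right of both WT points, and Usp18 and Irf7 are high in Rif1_KO replicate 2 alone.

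Ifitm1 and Ifitm2 were abundant, and even between the labels in TMM-scaled CPM. Ifitm1 had 2500 and 1750 CPM under the label Rif1_KO, against 2009 and 1678 CPM under the label WT (means 2125 ± 531 and 1843 ± 234, SD, n = 2 each). Ifitm2 had 654.2 and 866.9 CPM against 925.9 and 687.2 CPM, and Ifitm3, also called fragilis, 111.2 and 58.0 CPM against 79.1 and 99.4 CPM. The labels overlapped in all 3 on this scale, which rests on TMM factors of 1.11 and 1.32 against 0.856 and 0.800. Their fitted log2 fold changes were 0.21 (SE 0.27), -0.08 (SE 0.29) and -0.08 (SE 0.51), with edgeR adjusted p of 0.886, 0.971 and 0.987. With all libraries and other settings that of Ifitm1 reached 0.49, and those of Ifitm2 and Ifitm3 turned above 0 with upper-quartile factors. Per length and within each library, these 3 genes made up 98.5% and 97.2% of the TPM (transcripts per 1000000, by exon length) of all 34 genes under the label Rif1_KO, and 98.2% and 99.0% under the label WT. Ifitm3 stood at 7.18% and 5.35% of the TPM of Ifitm1 in the libraries labelled Rif1_KO, and at 6.36% and 9.56% in those labelled WT. Both of these shares were highest in WT replicate 2, as was the sum of the germ cell markers, whose part in these values was not tested. In TPM, which has no TMM factor, the labels did not overlap for these 3 genes. Ifitm1 had 4028 and 3570 TPM against 2207 and 1731, Ifitm2 1760 and 2954 against 1699 and 1184, and Ifitm3 289 and 191 against 140 and 166. Whether the labels differ in these genes thus depends on the scaling. Of the exon bases of Ifitm2, 40.9% are shared with the gene model Gm45717 on the same strand, and reads there were counted for both. Gm45717 had 7189 and 13680 counts against 7749 and 5112, and Ifitm2 had 8683 and 16368 against 10050 and 6393. Ifitm genes are also similar copies of each other, so the split between them is uncertain.

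Of the 34 genes 26 passed the filter on low counts, and by edgeR's quasi-likelihood test 0 of these were higher and 0 lower in the libraries labelled Rif1_KO at a Benjamini-Hochberg adjusted p under 0.05, where 0.0% of all 15466 tested genes were higher and 0.0129% lower. With no adjustment of p, 3 were higher and 0 lower at 0.05 (Stat2, Bst2 and Ifit3), beside 5.35% and 3.05% of all tested genes. DESeq2 called 2 higher and 0 lower, beside 2.13% and 1.24%, and limma-voom called 0. Both libraries labelled Rif1_KO lay above both labelled WT in 10 of the 26 tested genes (38.5%) and below them in 4 (15.4%), beside 21.0% and 18.4% of all tested genes. Tested members had a median log2 fold change of 0.60, against -0.11 over all tested genes; it was -0.11 against -0.14 with a stricter filter on low counts, and 0.27 against -0.04 without haemoglobin, rRNA-region and mitochondrial genes. Irf1, Stat2, Ifit2 and Ifit3 reached 10 counts only under the label Rif1_KO, so they entered the test through the label where they were high. Mx2 did so under the label WT. Bst2, Oasl2, Xaf1, Trim25, Irf3 and Rsad2 reached 10 counts in both libraries labelled Rif1_KO and in only 1 labelled WT. They too needed a library labelled Rif1_KO to pass, so Stat2, Bst2 and Ifit3 all entered through that label. The 8 genes not tested were Tlr3, Zbp1, Ifit1, Isg15, Usp18, Oas1a, Oas2 and Mx1.

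**Figure D3:**
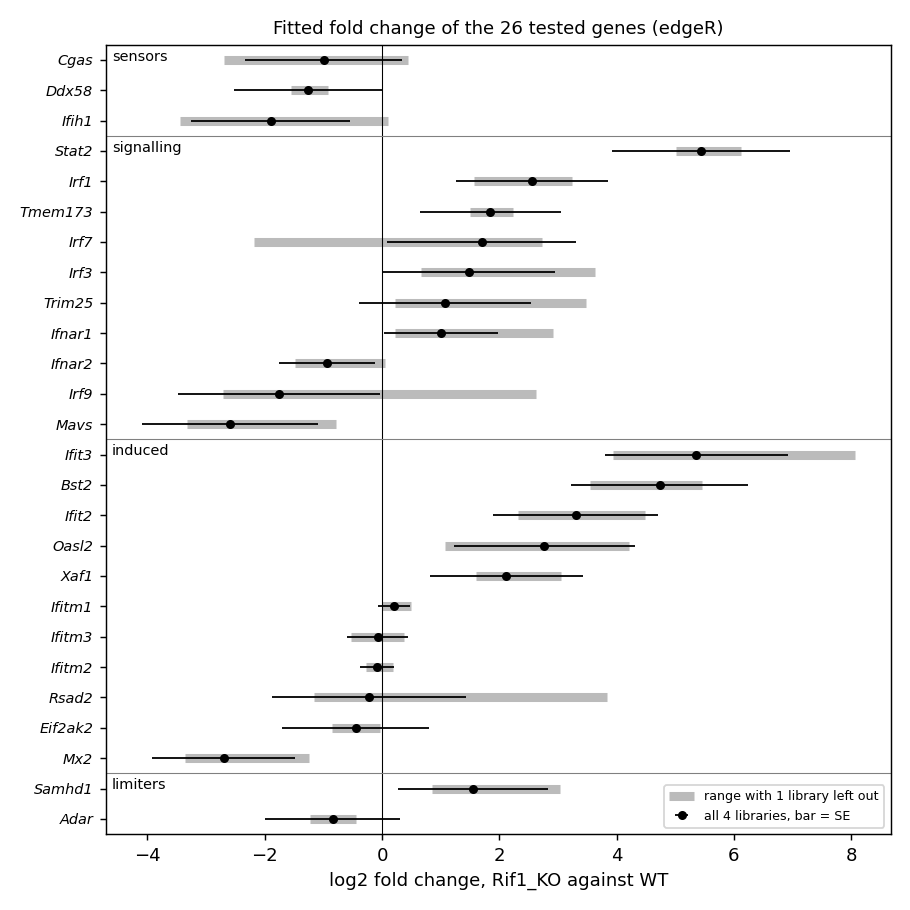
Fitted log2 fold change of the 26 tested genes, Rif1_KO against WT (edgeR, black points with SE bars), and the range of the same value with each of the 4 libraries left out in turn (grey). Stat2, Ifit3 and Bst2 lie farthest to the right. Their labels do not overlap, so leaving 1 library out could hardly bring them below 0. Irf9, Irf7 and Rsad2 cross 0.

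Among signalling genes Stat2 had the smallest p, and it entered the test only through the label Rif1_KO, so its values are a description. Stat2, the partner of IRF9 in the interferon-driven complex (ENSMUSG00000040033.16, chromosome 10, 128270559 to 128292849), had 6.40 and 7.52 CPM from 85 and 142 counts under the label Rif1_KO, against 0.0921 and 0.215 CPM from 1 and 2 counts under the label WT. The 2 labels did not overlap, and the libraries of each label lay close together. The ratio of pooled counts, scaled by library size, was 47.4, with a 95% interval of 16.0 to 232 that covers counting error only. The fitted log2 fold change was 5.43 (SE 1.52), higher in 2 of 2 libraries, with an unadjusted p of 0.00928 and an edgeR adjusted p of 0.571. DESeq2 gave an adjusted p of 0.0118, and over all alternatives the adjusted p was 0.0118 to 0.969. With 1 library left out the fold change was 5.01 to 6.12. At 1 and 2 counts under the label WT, such a fit could hardly change its sign.

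Irf9, the DNA-binding subunit beside STAT2, had 3.39 and 9.53 CPM, against 42.6 and 1.07 CPM under the label WT. The labels overlapped, WT replicate 1 alone was high, and the fitted log2 fold change was -1.75 (SE 1.72), against 2.62 without that library. Both receptor chains were well detected: Ifnar1 had 47.6 and 49.2 CPM against 41.5 and 6.66 CPM, and Ifnar2 25.8 and 22.9 CPM against 68.6 and 24.4 CPM. The labels overlapped for Ifnar2 and not for Ifnar1, whose WT replicate 1 lay close to the libraries labelled Rif1_KO and whose WT replicate 2 was low. Ifnar1 had a log2 fold change of 1.00 (SE 0.98) and an edgeR adjusted p of 0.83; without WT replicate 1 it was 2.91 with an adjusted p of 0.0229, the lowest of its alternatives, which reached 1. Ifnar2 shares 9.46% of its exon bases with the model Gm21970 on the same strand, and reads there were counted for both. Gm21970 had 283 and 495 counts against 542 and 223, and Ifnar2 had 343 and 432 against 745 and 227. The level of Ifnar2 itself is thus uncertain.

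Adaptors and interferon regulatory factors were low, and most were uneven between replicates. Mavs, the mitochondrial adaptor of the RNA sensors, had 1.88 and 2.70 CPM, against 3.96 and 24.0 CPM under the label WT. Both Rif1_KO values lay below both WT values, WT replicate 2 being the high library; the log2 fold change was -2.60 (SE 1.5, edgeR adjusted p = 0.699), and -0.78 without WT replicate 2. Tmem173, which encodes STING, the adaptor downstream of cGAS, showed the opposite order at 3.39 and 5.56 CPM against 1.29 and 1.18 CPM. Trim25, a ubiquitin ligase that aids RIG-I, had 4.67 and 7.15 CPM against 5.07 and 0.537 CPM. Irf3, which is present before infection and is activated by phosphorylation, had 2.94 and 7.63 CPM against 3.32 and 0.430 CPM. WT replicate 2 was the low library for both. Irf1, a factor also driven by interferon gamma, had 2.03 and 6.41 CPM against 0.461 and 0.967 CPM, without overlap. Irf7, the interferon-inducible relative of Irf3, had 0.226 and 6.99 CPM against 0.829 and 1.40 CPM, high in Rif1_KO replicate 2 only; its log2 fold change was 1.70 with all libraries and -2.18 without that library.

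None of the 5 sensors separated the labels upwards. The 3 that could be tested had fitted log2 fold changes below 0; over all tested genes 46.1% lay above 0. Ddx58, which encodes RIG-I (ENSMUSG00000040296.15, chromosome 4, 40203773 to 40239828), had 3.77 and 2.38 CPM against 8.11 and 6.66 CPM. The labels did not overlap, with both Rif1_KO values below both WT values. The fit gave -1.26 (log2, SE 1.27) and an edgeR adjusted p of 0.838. Cgas, the cytosolic DNA sensor, had 3.54 and 20.1 CPM against 38.2 and 8.92 CPM in WT, with overlap and a difference of over 4-fold within each label. Ifih1, which encodes MDA5, had 1.13 and 0.212 CPM against 4.33 and 0.645 CPM. Tlr3, the endosomal receptor of double-stranded RNA, had 0.377 and 0.371 CPM against 0 and 1.07 CPM. Zbp1, a sensor of Z-form nucleic acid, had 0.980 and 0.212 CPM against 0.184 and 0.860 CPM, and Tlr3 and Zbp1 each reached 10 counts in 1 library. The log2 fold changes of Cgas and Ifih1 were -0.996 and -1.90 with all libraries, and 0.45 and 0.095 without WT replicate 1.

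Among the induced genes Bst2 and Ifit3 had the smallest p. Both needed a library labelled Rif1_KO to enter the test, so their values are a description. Their labels did not overlap, so leaving 1 library out could hardly change their sign. Bst2, which encodes tetherin, a protein that holds budding virus on the cell surface (ENSMUSG00000046718.8, chromosome 8, 71534255 to 71537456), had 10.02 and 37.2 CPM under the label Rif1_KO, against 1.11 and 0.645 CPM under the label WT. Both libraries labelled Rif1_KO were above both labelled WT, and differed from each other by 3.71-fold. The log2 fold change was 4.74 (SE 1.51), higher in 2 of 2 libraries, with an unadjusted p of 0.0167 and an edgeR adjusted p of 0.571. DESeq2 gave an adjusted p of 0.0037, and over all alternatives the adjusted p was 0.0037 to 0.969; with 1 library left out the fold change was 3.54 to 5.46. Ifit3, an RNA-binding antiviral gene (ENSMUSG00000074896.3, chromosome 19, 34583531 to 34588731), had 3.92 and 0.847 CPM from 52 and 16 counts, against 0.0921 and 0 CPM from 1 and 0 counts. The ratio of pooled counts was 42.6, with a 95% counting interval of 7.40 to 1708. Its log2 fold change of 5.36 (SE 1.56) had an unadjusted p of 0.0116, an edgeR adjusted p of 0.571 and a DESeq2 adjusted p of 0.212, and was 3.94 to 8.06 with 1 library left out. The near copy Ifit3b had at most 0.107 CPM in any library. The 9 stromal markers lay above WT in the same libraries, and their part in these differences was not tested.

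Ifit2, next to Ifit3 on chromosome 19, had 7.31 and 2.33 CPM against 0.737 and 0.215 CPM, without overlap. Oasl2, a relative of the 2′-5′ oligoadenylate synthetases, had 10.02 and 1.75 CPM against 1.38 and 0.322 CPM (log2 fold change 2.76, SE 1.54, edgeR adjusted p = 0.684), and its value without Rif1_KO replicate 1 was 1.08. Xaf1, a regulator of apoptosis, had 6.93 and 3.87 CPM against 0.645 and 1.83 CPM (log2 fold change 2.12, SE 1.31, edgeR adjusted p = 0.716). All 3 lay above WT in both libraries labelled Rif1_KO, more so in replicate 1.

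Some induced genes were detected in 1 library labelled Rif1_KO and hardly in the other. Usp18, which removes ISG15 and dampens receptor signalling, had 0.301 and 6.62 CPM from 4 and 125 counts, against 0.368 and 0.215 CPM from 4 and 2 counts under the label WT. Usp18 shares 4.44% of its exon bases with the antisense model Gm44148, which had 0 and 30 counts against 2 and 1. Oas1a, an oligoadenylate synthetase with close copies in the mouse genome that make its counts uncertain, had 0.151 and 2.81 CPM from 2 and 53 counts, against 0.184 and 0.322 CPM from 2 and 3. Oas2, of the same family and on the same chromosome, had the reverse with 4.37 and 0.159 CPM from 58 and 3 counts, against 0.0921 and 0.322 CPM from 1 and 3. Of the members described above, Irf7, Cgas and Bst2 were also higher in Rif1_KO replicate 2, and Oasl2, Ifit3, Ifih1 and Zbp1 in replicate 1, by 3.71-fold or more. Among other pathway genes Irgm1 had 9 and 246 counts against 4 and 7, Iigp1 3 and 179 against 1 and 1, and Lgals3bp 1 and 175 against 2 and 7; these 3 were chosen after their values were seen. Over 4-fold between the libraries of a label was seen for 19.2% of the 26 tested genes under the label Rif1_KO and for 46.2% under the label WT, beside 18.7% and 36.1% of all tested genes. Usp18, Oas1a, Oas2 and Zbp1, also over 4-fold apart under the label Rif1_KO, were not tested and are not in this share.

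**Figure D4:**
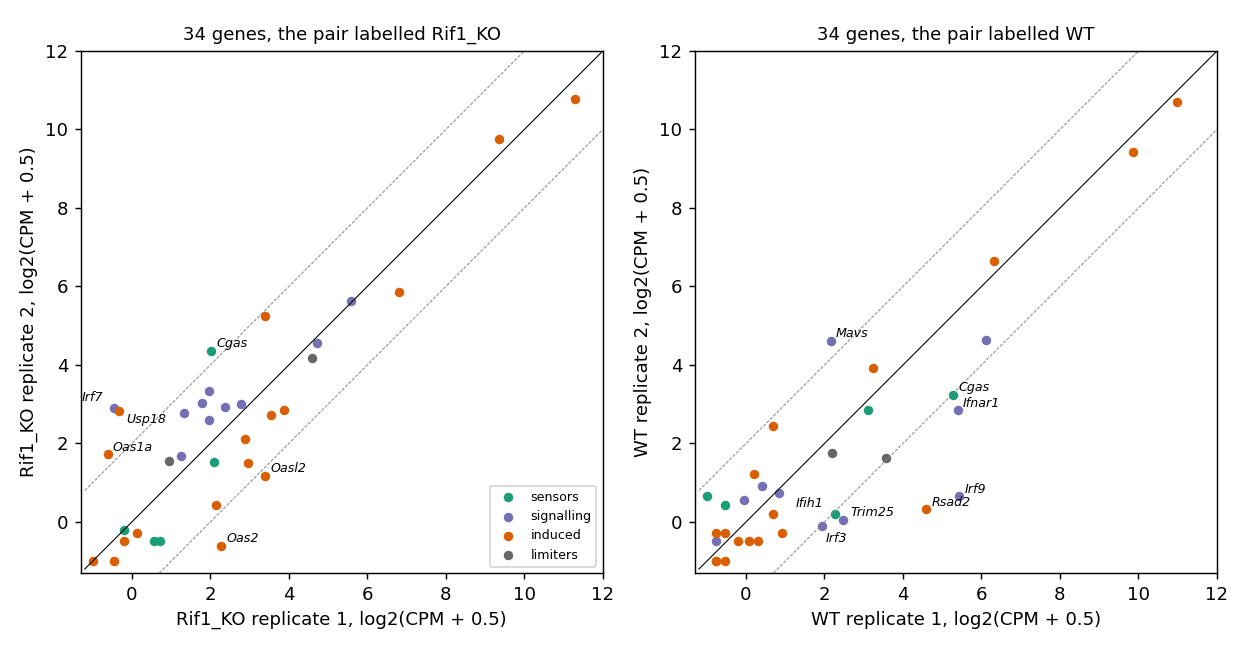
Level of the 34 genes, log2(CPM + 0.5), in replicate 1 (x axis) and replicate 2 (y axis), for the pair labelled Rif1_KO (left) and the pair labelled WT (right). The solid line marks equality and the dashed lines a 4-fold difference on this scale; genes outside them are named, and Usp18, Oas1a and Irf7 lie on the opposite side of the left panel from Oas2.

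The remaining induced genes did not separate the labels upwards. Rsad2, which encodes viperin, had 14.2 and 6.78 CPM against 23.7 and 0.752 CPM. WT replicate 2 was far below the other 3 libraries, and the log2 fold change of -0.22 (SE 1.66) turned to 0.081 with upper-quartile factors and to 3.83 without WT replicate 1. Eif2ak2, which encodes the RNA-activated kinase PKR, had 11.1 and 6.14 CPM against 8.94 and 14.6 CPM. Mx2, a dynamin-like gene of the Mx family, had 0.603 and 0.318 CPM against 1.11 and 4.94 CPM, below WT in both libraries labelled Rif1_KO. Mx1, of which C57BL/6 mice carry a defective allele, had 5 and 4 counts against 6 and 2, Ifit1 had 3 and 0 against 1 and 0, and Isg15, the ubiquitin-like modifier, had 0 and 0 against 2 and 0. No fold is given for Isg15 and Ifit1, which were at or under 3 counts in each library.

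Of the genes that limit sensing, Samhd1, which degrades the nucleotides used for reverse transcription, had 23.6 and 17.5 CPM, against 11.4 and 2.58 CPM under the label WT. Its labels did not overlap, and its log2 fold change was 1.55 (SE 1.29, edgeR adjusted p = 0.8). Adar, which edits double-stranded RNA so that MDA5 does not detect it, had 1.43 and 2.44 CPM against 4.05 and 2.90 CPM, below WT in both libraries. Adar shares 16.8% of its exon bases with Chrnb2 on the opposite strand, and with no strand option in counting the reads of the 2 genes cannot be told apart there. Chrnb2 had 25 and 42 counts against 48 and 33, and Adar had 19 and 46 against 44 and 27. How much of either rests on shared reads was not tested, so the order of Adar is uncertain.

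Other genes of the pathway, 94 listed by name, were set beside them. Of the 53 that were tested, edgeR called 0 higher and 0 lower (limma-voom 0 as well), with 1 higher and 2 lower when p is left unadjusted at 0.05, and DESeq2 called 0 higher and 2 lower. Their median log2 fold change was -0.15, against -0.11 over all tested genes. Ube2l6, the conjugating enzyme for ISG15, had 35.0 and 81.7 CPM under the label Rif1_KO, against 526.8 and 429.9 CPM under the label WT, a log2 fold change of -3.03 (SE 0.48, edgeR adjusted p = 0.377, DESeq2 adjusted p = 0.0172). The labels lay far apart, as those of the 10 erythroid markers did, whose part in this difference was not tested. Rela, the NF-kappaB subunit p65, had 6.63 and 5.24 CPM against 35.8 and 57.2 CPM (-2.97, SE 0.94, edgeR adjusted p = 0.571, DESeq2 adjusted p = 0.023). Aim2, a DNA sensor of the inflammasome, had 1.43 and 0.900 CPM against 0.184 and 0.107 CPM, from 3 counts in all under the label WT.

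By role, the sensors with the next smallest p were Oas3, with 0.678 and 8.42 CPM against 1.57 and 0.430 CPM, and the helicase gene Ddx41, with 25.6 and 68.3 CPM against 115.9 and 40.5 CPM. Of the signalling genes Ifngr2, an interferon gamma receptor chain, had 44.6 and 84.3 CPM against 149.9 and 119.3 CPM. The ligase gene Traf6 had 2.79 and 7.26 CPM against 1.01 and 0.860 CPM. Of the induced genes Gbp3, a guanylate-binding protein gene, had 0.678 and 0.953 CPM against 18.5 and 0.430 CPM. Pml, of the nuclear bodies, had 2.86 and 7.36 CPM against 1.38 and 0.537 CPM. Of the limiters Socs3, a feedback inhibitor of JAK kinases, had 2.26 and 3.87 CPM against 0.184 and 0.860 CPM. Ttc37, of the RNA-degrading SKI complex, had 6.86 and 16.6 CPM against 0.921 and 2.15 CPM. Rnaseh2a, the catalytic subunit of RNase H2, had 123.6 and 144.8 CPM against 193.6 and 223.0 CPM. None of these passed edgeR's test, with adjusted p of 0.626 to 0.84.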

How the data were processed

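The data were RNA-seq counts of 4 libraries of cells labelled primordial germ cells, 2 labelled Rif1_KO and 2 labelled WT, grouped by the genotype and numbered by the titles. The submitters' processing notes name the build mm10 and the tools HISAT2, featureCounts, SAMtools, FastQC and Trim Galore. Per the file headers, the deposited counts per gene were made with featureCounts 1.6.2 on GENCODE M17, counting fragments at mapping quality 30 or more, with reads on several genes counted for each and no strand option; genes with close copies can thus be undercounted. The counts were deposited without normalization. Each table row also holds the exon length in bases, per the file headers.

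Symbols were looked up by Ensembl identifier (95 of 53715 had none). edgeR 4.0.16 in R 4.3.3 was run on all 4 libraries: filterByExpr by group with a minimum count of 10 (15466 genes kept), TMM factors, robust quasi-likelihood test and Benjamini-Hochberg adjustment at 0.05 over all tested genes. Fold changes are log2, Rif1_KO against WT, and the SE was taken as their size over the root of the F statistic. CPM uses TMM-scaled totals. TPM uses exon length and is read only within a library, other than where the Ifitm genes are given on both scales. DESeq2 1.42.0 and limma-voom (limma 3.58.1) were alternatives, beside other scalings, filters, a replicate block and each library left out. edgeR's common dispersion corresponds to a biological coefficient of variation of 0.842. The smallest two-sided p of an exact permutation test is 0.333 in this design, so no single value was tested that way. The steps were tested on simulated counts. The libraries of a label differed by more than sampling noise. No columns were left out.

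Promoters are RefSeq's for GRCm38.p6. The members and gene lists were chosen with earlier results of these data known, and the list of other pathway genes is not complete. CPM in every library was given for each member with at least 10 counts in 1 library, and counts for the others. Fold change, SE and p were given for members at an unadjusted p under 0.05, or without overlap of the labels where the higher label averaged 5 CPM or more. Beyond that rule, fold changes are given for the Ifitm genes and for Irf9, Irf7, Cgas, Ifih1 and Rsad2, chosen after their values were seen. Of the other pathway genes, those at an unadjusted p under 0.05 and up to 3 with the smallest p in each role were named.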

Additional observations from a re-analysis of the deposited data

How the results depend on the processing

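The counts of calls depended on the tool and on single libraries. Over the whole table, 0 genes were called higher and 2 lower; this became 18 and 36 without the filter on low counts, 329 and 192 by DESeq2, 0 lower with upper-quartile factors, with the stricter filter or without haemoglobin, rRNA-region and mitochondrial genes, and 0 to 692 higher and 5 to 653 lower with 1 library left out. There a label with 1 library borrows its spread from the other label. Of the 34 genes, 3 were higher and 0 lower at 0.05 with p unadjusted, against 6 higher without the filter, 1 lower by DESeq2, and 2 to 6 higher and 0 to 2 lower with 1 library left out; 2 were called by DESeq2 and 0 to 2 with 1 library left out, 2 of them without WT replicate 1 (Ifnar1 and Bst2) and 1 without WT replicate 2 (Bst2). The median log2 fold change of the tested members, 0.60, was -0.11 with the stricter filter, 0.27 without haemoglobin, rRNA-region and mitochondrial genes and 0.45 to 1.96 with 1 library left out. That of the sensors, -1.26, was -0.69 without the filter and -1.54 to -0.49 with 1 library left out; that of the signalling genes, 1.28, was 0.45 to 2.39; that of the limiters, 0.35, was 1.55 with the stricter filter and -0.10 to 1.25. That of the induced genes, 0.21, was 1.16 without the filter, 1.11 by limma-voom 1.08 to 2.52 with 1 library left out and -0.11 with the stricter filter; the genes tested change with the libraries, and with all 4 the median gene was Ifitm1. Other pathway genes numbered 1 higher and 2 lower by the same rule, against 3 higher without the filter, 0 higher with the stricter filter, 2 higher and 4 lower by DESeq2, and 0 to 6 higher and 1 to 9 lower with 1 library left out; 1 was called without the filter, 2 by DESeq2 and 0 to 2 with 1 library left out. Their median, -0.15, was 0.29 by limma-voom and -0.20 to 0.79 with 1 library left out.

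The fold change changed sign in at least 1 alternative for 8 of the 26 tested genes and kept it for 18. With 1 library left out it was -3.45 to 0.095 for Ifih1, -2.70 to 0.45 for Cgas, -1.49 to 0.047 for Ifnar2, -2.71 to 2.62 for Irf9, -1.17 to 3.83 for Rsad2 and -0.28 to 0.19 for Ifitm2, the upper ends without WT replicate 1. Likewise it was -2.18 to 2.73 for Irf7, the lower end without Rif1_KO replicate 2, and -0.53 to 0.37 for Ifitm3, the upper end without Rif1_KO replicate 2. Rsad2 was also at 0.23 without Rif1_KO replicate 2, Ifitm2 at 0.18 without Rif1_KO replicate 1 and Ifitm3 at 0.11 without WT replicate 2. Rsad2 was at 0.081 with upper-quartile factors and 1.11 by limma-voom, Ifitm2 at 0.18 and Ifitm3 at 0.21 with upper-quartile factors, and at 0.21 and 0.20 without the filter. The cause was not tested. Over the whole table the median moved from scaling to scaling, at -0.11 by TMM, -0.19 by RLE and 0.16 by upper-quartile factors, so single values are to be read against it.

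Nothing in the labels pairs libraries of the same replicate number. Deviations of same-numbered libraries had a correlation of -0.0241 over genes, which cannot exclude a shared batch that moves part of the genes. With a replicate block 7 genes of the table were called lower, the members' p counts stayed at 3 and 0, the median of the induced genes was 1.15, that of the other pathway genes 0.43, and Rsad2 was at 1.15. At this depth, differences in genes near 3 counts a library, such as Isg15, were not detectable.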
